A study of Mus with 6 samples.

Results

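The genes described here encode digestive enzymes, and 1 enzyme cofactor, made by the acinar cells of the exocrine pancreas. They were chosen by name, as a list of 10 Ensembl IDs, with earlier results of these data known. Of these, 8 (Ctrb1, Prss2, Cela3b, Cpa1, Cpb1, Pnlip, Cel and Clps) were among the 15646 genes of the deposited count table. Cela2a and Try4 had no row to draw on and were not analysed here. RNA came from orthotopic pancreatic tumors of KPC1199, a line of mouse pancreatic ductal adenocarcinoma. Hosts of the obese group were ob/ob mice, whose leptin gene carries a loss-of-function mutation on both copies. The hosts of the lean group were wild-type mice, named WT in the design text. All hosts carried the same line in the pancreas. The obese group held 3 libraries, numbered 1, 3 and 4, and the lean group 3, numbered 1, 2 and 3. The labels give no host strain, sex, age, tumor weight or time after implantation. The comparison is of tumor RNA between obese ob/ob and lean wild-type hosts, and it cannot tell obesity apart from the loss of leptin.

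Acinar cells build proteins for export. They store proteases as inactive zymogens in secretory granules and release them, with lipases and amylases, into the duct that leads to the gut. There trypsin activates the other zymogens. A ductal adenocarcinoma line is not acinar, while the normal pancreas into which an orthotopic implant is placed is mostly acinar tissue. In bulk RNA, fewer cells of a type and less RNA per cell cannot be told apart, and these counts do not separate host from tumor RNA.

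Acinar enzyme RNA was scarce in these tumors, and most of it was in a single lean library. The 8 genes together held 347 counts over the 6 libraries, and 79.8% of them were in lean 1. Lean 1 and lean 3 together held 93.9%. None of the 8 genes passed the expression filter of the planned edgeR test, which removed 1298 of the 15646 genes, so that test gave no call for them (0 of 0 tested). Over the 14348 genes it did test, 10.6% were called lower and 10.3% higher in obese hosts, 20.8% in all. The counts of obese hosts were lower on average, but the groups overlapped or met at 0 for 7 of the 8 genes, and overlapped for the summed counts.

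The libraries were of similar depth, between 7122533 and 8521244 counts. At this depth, 0 counts of a gene allow a level of up to 0.351 to 0.425 CPM (counts divided by library size and put on a common scale), which is the level of 3 counts. On the first principal component of the genes that passed the filter (54.1% of the variance) obese libraries lay between 29.0 and 43.6 and lean libraries between -46.0 and -25.6. Obese 3 stood apart on the second component (15.0%), at -37.7 against -6.45 to 17.5 in the other 5 libraries. Lean 1 was at the low end of the third (11.9%), at -29.6, and lean 2 at the high end, at 24.6.

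Summed over the 8 genes, the counts were 1, 17 and 0 in obese 1, 3 and 4, against 277, 3 and 49 in lean 1, 2 and 3. As CPM of the library total, this was 0.119 in obese 1 (95% exact Clopper-Pearson interval 0.00301 to 0.662), 2.18 in obese 3 (1.27 to 3.49) and 0 in obese 4 (0 to 0.444). Among lean hosts it was 32.5 in lean 1 (28.8 to 36.6), 0.421 in lean 2 (0.0869 to 1.23) and 5.87 in lean 3 (4.35 to 7.77). These intervals cover counting error only. The order of the libraries did not follow the host: obese 3 lay above lean 2 and below lean 3, and lean 2, obese 1 and obese 4 had overlapping intervals near 0.

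**Figure D1:**
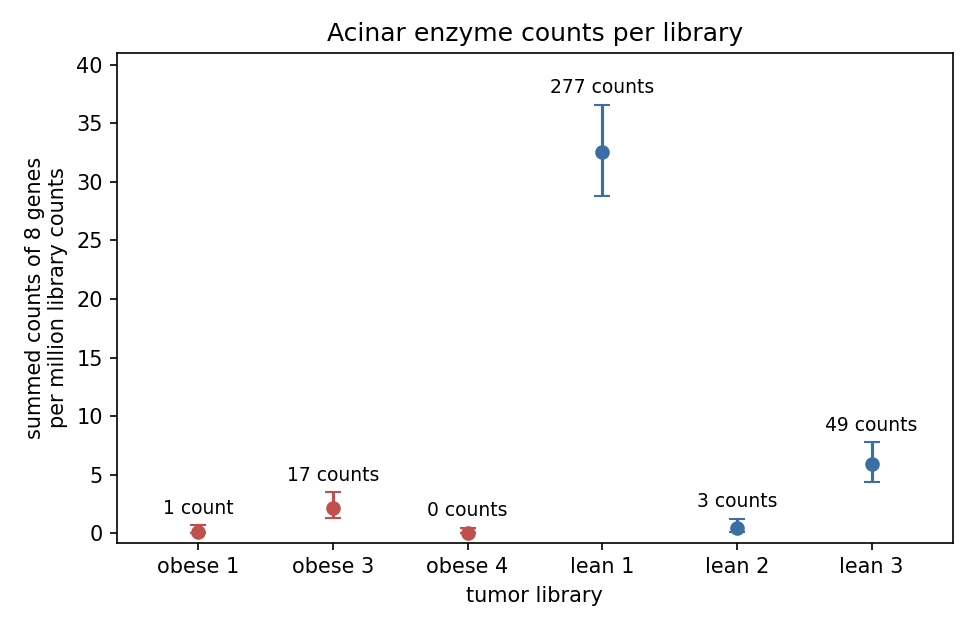
Summed counts of the 8 acinar enzyme genes as CPM of the library total (y axis) in each tumor library (x axis), with obese libraries in red and lean libraries in blue. Bars are 95% exact binomial intervals of counting error, and lean 1, with 277 counts, lies above the other 5 libraries, which hold 0 to 49.

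The spread within the lean group was as large as the difference between groups. Scaled by TMM factors (edgeR's correction of library size for composition), the summed level was 0.731 ± 1.17 CPM in obese and 13.1 ± 17.3 CPM in lean hosts (SD, n = 3 each). The SD of the lean group exceeded its mean, and it exceeded the difference between the groups, which was -12.4 CPM. Without lean 1 the difference was -2.54 CPM, with a lean mean of 3.28 CPM over 2 libraries. Lean 1 held 5.36 times the level of lean 3 (95% counting interval 3.95 to 7.42) and 77.2 times that of lean 2 (26.1 to 377), ratios that compare these libraries and not a condition. Within the obese group, obese 3 held 17.7 times the level of obese 1 (2.78 to 741), and it was 4.88 times as high as lean 2 (1.41 to 26.0).

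Among the proteases, Ctrb1 (ENSMUSG00000031957.6; chromosome 8, 111686510 to 111691010 in GRCm38) encodes chymotrypsinogen B, the zymogen of an enzyme that cuts after large aromatic residues. It had 1, 8 and 0 counts in obese 1, 3 and 4, against 82, 0 and 21 counts in lean 1, 2 and 3. Its counts were the highest of the 8 genes in lean 1, lean 3 and obese 3, and the groups overlapped because lean 2 had none. The level was 0.365 ± 0.534 CPM in obese and 4.12 ± 5.03 CPM in lean hosts (SD, n = 3 each, exact permutation test, two-sided, p = 0.4). With 3 against 3 libraries the smallest p of this test is 0.1, so it could call no gene at 0.05. Counts are not divided by transcript length here, so the order of genes by count is not an order of molecules.

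Prss2 (ENSMUSG00000057163.3; chromosome 6, 41521776 to 41525079) encodes a trypsinogen. It had 0 counts in each of the 3 obese libraries, against 24, 0 and 9 counts in lean 1, 2 and 3. With the 3 obese libraries together set at a floor of 3 counts, the pooled level was 11.7-fold lower in the obese group. It was 4.99-fold lower when lean 1 was left out. These folds take the lean counts as exact and are not lower bounds of a difference between hosts. The 95% counting interval, which also covers the lean counts, put the ratio of pooled Prss2 counts, obese over lean, at up to 0.111 with all libraries and up to 0.305 without lean 1. Lean 2 also had none, so the groups met at 0 (exact permutation test, two-sided, p = 0.4). Prss2 lies in a cluster of trypsinogen genes on chromosome 6 with Try4, Try5, Try10, Prss1 and Prss3, which lie 58.0 to 216 kb from it in the RefSeq annotation. The counting could split reads between such similar copies, and the Prss2 value is uncertain for that reason.

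Cela3b (ENSMUSG00000023433.8; chromosome 4, 137421008 to 137430520) encodes a pancreatic elastase-family protease. It had 0 counts in all 3 obese libraries, against 16, 0 and 2 counts in lean 1, 2 and 3. Lean 2 also had none, so the groups met at 0 (exact permutation test, two-sided, p = 0.4). At the same floor, and with the lean counts taken as exact, the pooled level was 6.39-fold lower in the obese group. The 95% counting interval put the ratio, obese over lean, at up to 0.214. Without lean 1, only 2 counts were left in the lean group and no fold can be given. Its relative Cela3a lies 11.2 kb away on the same chromosome, and shared reads are possible there too.

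The carboxypeptidases trim residues from the end of a peptide chain, Cpa1 the aromatic and aliphatic ones and Cpb1 the basic ones. Cpa1 (ENSMUSG00000054446.8; chromosome 6, 30639218 to 30645361) had 0, 4 and 0 counts in obese 1, 3 and 4, against 40, 1 and 2 counts in lean 1, 2 and 3. Obese 3 thus exceeded lean 2 and lean 3 in Cpa1 counts, and the groups overlapped (exact permutation test, two-sided, p = 0.5). The ratio of pooled Cpa1 counts per effective library size, obese over lean, was 0.0873 (95% counting interval 0.0228 to 0.240) with all libraries and 0.802 (0.136 to 5.48) without lean 1. Cpb1 (ENSMUSG00000011463.5; chromosome 3, 20249479 to 20275733) had 0 counts in each obese library, against 15, 0 and 4 counts in lean 1, 2 and 3. Lean 2 also had none, so the groups met at 0 (exact permutation test, two-sided, p = 0.4). At the floor used for Prss2, the pooled level was 6.75-fold lower in the obese group with all libraries and 2.22-fold lower without lean 1. The 95% counting interval of the ratio, obese over lean, reached up to 0.201 and, without lean 1, up to 0.911.

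**Figure D2:**
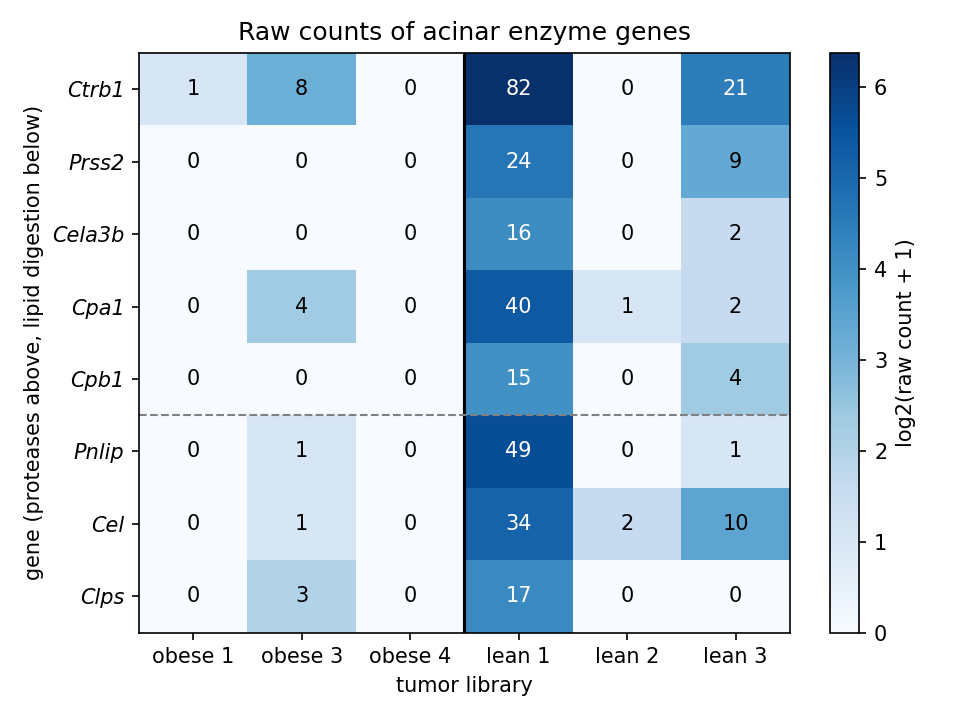
Raw counts of the 8 acinar enzyme genes (rows; 5 protease genes above the dashed line, 3 genes of lipid digestion below) in the 3 obese and 3 lean tumor libraries (columns), coloured by log2 of the count plus 1. Lean 1 holds counts of all 8 genes, lean 3 of 7, obese 3 of 5, lean 2 of 2, obese 1 of 1 and obese 4 of 0.

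Of the genes of lipid digestion, Pnlip (ENSMUSG00000046008.8; chromosome 19, 58670365 to 58681799) encodes pancreatic triglyceride lipase, the main enzyme of dietary fat digestion. It had 0, 1 and 0 counts in obese 1, 3 and 4, against 49, 0 and 1 counts in lean 1, 2 and 3. Its signal was the most uneven of the 8 genes, with 96.1% of its counts in lean 1. The ratio of pooled counts, obese over lean, was 0.0188 (95% counting interval 0.000466 to 0.110) with all libraries. Without lean 1 the groups held 1 count each, and the interval of the ratio (0.00766 to 47.2) gave no direction.

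Clps (ENSMUSG00000024225.5; chromosome 17, 28558210 to 28560766) encodes colipase, the cofactor that anchors pancreatic lipase to fat droplets coated with bile salts. It had 0, 3 and 0 counts in obese 1, 3 and 4, against 17, 0 and 0 counts in lean 1, 2 and 3. Obese 3 was thus the only library other than lean 1 with Clps counts (exact permutation test, two-sided, p = 1). The ratio of pooled counts, obese over lean, was 0.166 (95% counting interval 0.0311 to 0.573), and without lean 1 both groups were at or under the floor of 3 counts.

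Cel (ENSMUSG00000026818.5; chromosome 2, 28555819 to 28563403) encodes the lipase stimulated by bile salts, which also splits cholesteryl esters. It had 0, 1 and 0 counts in obese 1, 3 and 4, against 34, 2 and 10 counts in lean 1, 2 and 3. Cel was the single gene of the 8 whose groups did not overlap, a pattern with all obese below all lean libraries that 19.3% of the 15646 genes showed, and 11.5% of the 1298 genes removed by the filter. The nearest libraries, with 1 count in obese 3 and 2 counts in lean 2, were both under 3 counts, so this separation was not detectable beyond counting error. The exact permutation test gave Cel p = 0.1 (two-sided), the smallest that 3 against 3 libraries allow, and an adjusted p = 0.533 over the 8 genes. The ratio of pooled Cel counts, obese over lean, was 0.0204 (95% counting interval 0.000506 to 0.120), and 0.0501 (0.00117 to 0.339) without lean 1.

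When the expression filter was dropped and all 15646 genes were tested, 1 of the 8 genes, Cel, was called lower in obese hosts and 0 were called higher (edgeR quasi-likelihood test, with p adjusted by Benjamini-Hochberg and called under 0.05). In that fit 9.45% of all genes were called lower, and 3.39% of the genes the filter removes. The log2 fold change of Cel was -5.09 (SE 1.30, edgeR adjusted p = 0.0230). The call ended without lean 1 (log2 fold change -3.84, SE 1.45, edgeR adjusted p = 0.0960), without obese 1 (adjusted p = 0.0766), without obese 4 (adjusted p = 0.0654) and with limma-voom (adjusted p = 0.0963). Of the 8 genes, 7 had an unadjusted edgeR p under 0.05 and Clps did not. Without lean 1, Cel alone of the 8 stayed under that cut, so the count of 7 rested on lean 1. The share of all genes under the same unadjusted cut is not given here, so the count has no background to be read against.

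The other 7 genes did not pass the edgeR test without the filter, with adjusted p-values between 0.0505 (Prss2) and 0.333 (Clps). Ctrb1 passed it without obese 3 (edgeR adjusted p = 0.0411) and without lean 2 (adjusted p = 0.0337), and Prss2 without lean 2 (adjusted p = 0.0326). Neither passed it without lean 1 (edgeR adjusted p = 0.384 for Ctrb1 and 0.154 for Prss2). The fitted log2 fold changes of the 7 genes were all negative, as were 49.0% of those of all genes. For the genes with counts in both groups they were -3.32 in Cpa1 (SE 1.44), -3.47 in Ctrb1 (SE 1.27), -5.19 in Pnlip (SE 1.84) and -2.38 in Clps (SE 1.65). The median over the 8 genes was -5.14, beside 0.01 over all genes. It includes fitted values of 3 genes at 0 in obese hosts. With these set at the floor of 3 counts, the median log2 ratio of pooled counts was -3.53. Outside lean 1, only Ctrb1 and Cel held at least 11 counts, the lowest gene sum in the table. The other enzyme genes reached that sum only through a lean library, which favours negative values. The median over all genes is therefore no like-for-like background. Without lean 1 the fitted median of the 8 was -2.54, Cpa1 was at -0.29 (SE 1.69) and Pnlip at -0.56 (SE 2.26), and Clps was at 3.12 (SE 2.95), none of them past the test.

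Pooled over the 8 genes, 18 counts in obese and 329 in lean libraries gave a ratio of 0.0514 (95% counting interval 0.0301 to 0.0825). Without lean 1, 18 against 52 counts gave 0.208 (0.115 to 0.362). Both intervals lie below 1, but they treat counts as the only source of error and leave out the spread between tumors. Obese 3 alone held 17 of the 18 obese counts, and lean 3 alone held 49 of the 52.

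**Figure D3:**
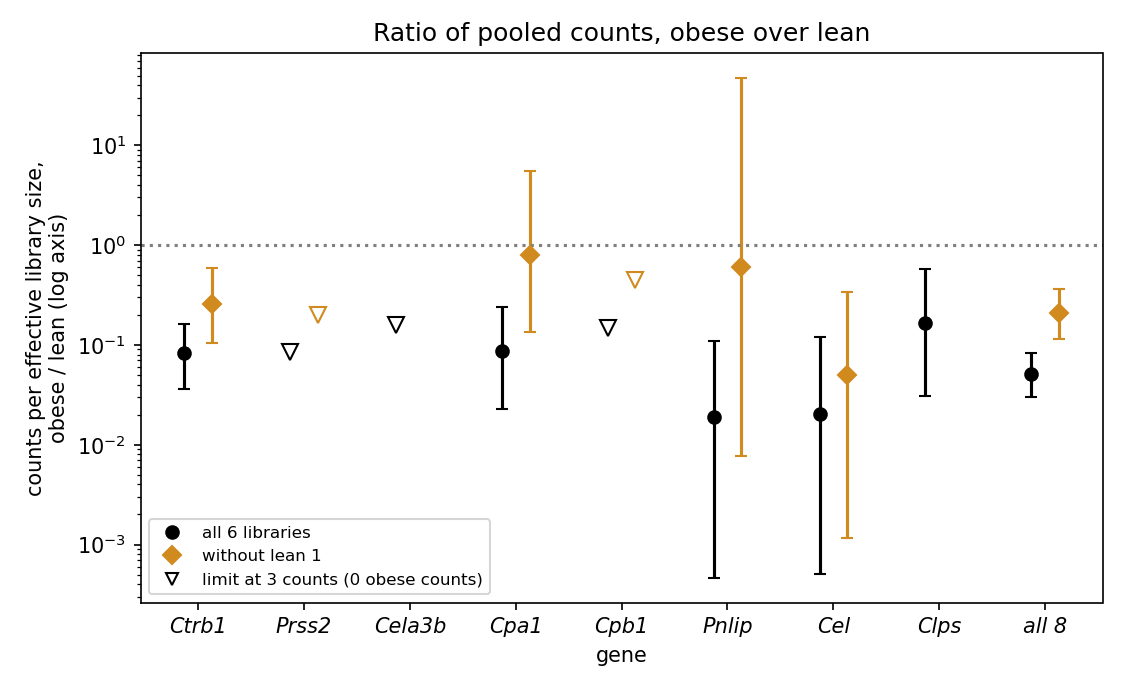
Ratio of pooled counts per effective library size, obese over lean (y axis, log scale), for each acinar enzyme gene and for all 8 together (x axis), with all 6 libraries (black) and without lean 1 (orange). Bars are 95% counting intervals. Open triangles mark genes with 0 obese counts, set at 3 counts over the obese group with lean counts taken as exact. Genes with too few counts for a ratio have no symbol. For Cpa1 the ratio is 0.0873 with lean 1 and 0.802 without it.

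The mix of enzymes could be compared in the 3 libraries with more than a few counts. Ctrb1 made up 47.1% of the summed counts in obese 3 (8 of 17; 95% exact Clopper-Pearson interval 23.0 to 72.2), against 29.6% in lean 1 (82 of 277; 24.3 to 35.4) and 42.9% in lean 3 (21 of 49; 28.8 to 57.8). Pnlip made up 5.88% in obese 3 (0.149 to 28.7), against 17.7% in lean 1 (13.4 to 22.7) and 2.04% in lean 3 (0.0517 to 10.9). Of 16 comparisons of single genes, of lean 1 with lean 3 and with obese 3, the share of Pnlip in lean 1 against lean 3 was the one that passed (Fisher's exact test, two-sided, p = 0.00233, adjusted p = 0.0373 over the 16). This compares reads of those libraries, which may hold PCR copies of a molecule, and not conditions. The other shares differed by less than could be told at these counts, and the adjusted p-values were 0.264 or more.

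The genes of lipid digestion as a group, Pnlip, Cel and Clps, held 29.4% of the summed counts in obese 3 (95% exact interval 10.3 to 56.0), against 36.1% in lean 1 (30.4 to 42.1) and 22.4% in lean 3 (11.8 to 36.6). The intervals overlapped. The protease genes made up the larger part of the counts in each of these libraries, with 12 counts in obese 3, 177 in lean 1 and 38 in lean 3.

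**Figure D4:**
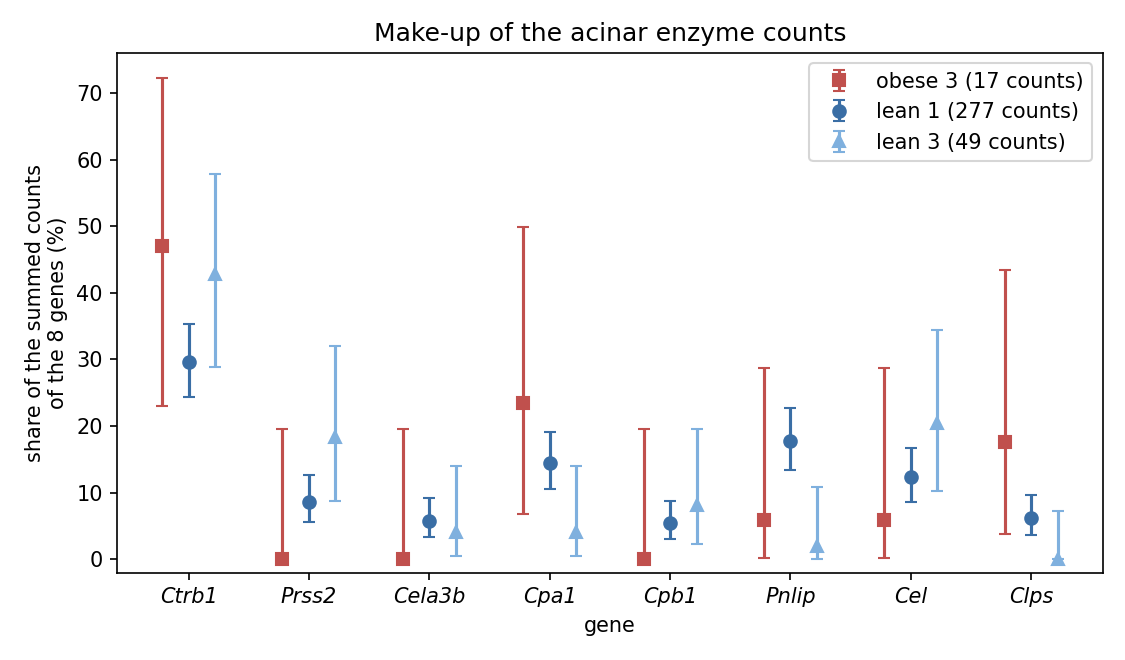
Share of each gene in the summed counts of the 8 acinar enzyme genes (y axis, percent) in obese 3 (red squares), lean 1 (dark blue circles) and lean 3 (light blue triangles), with 95% exact binomial intervals. The shares overlap for most genes; that of Pnlip is 17.7% in lean 1 and 2.04% in lean 3.

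The concentration of counts in lean 1 was shared by all 8 genes and was uncommon in the table. Between 72.3% (Cel) and 96.1% (Pnlip) of a gene's counts were in lean 1, with a median of 82.0% over the 8 genes and 17.1% over all genes. At least 72.3% of their counts in lean 1 were found for 26 of the 15646 genes, the 8 acinar enzyme genes and 18 others. That cut is the lowest share among the 8 genes, so all 8 reach it by construction. The lowest gene sum in the table was 11. Outside lean 1, only Ctrb1 and Cel of the 8 genes held 11 counts or more. Under a rule on gene sums, the other enzyme genes thus had a row only through lean 1. For these genes a high share in lean 1 was in part built in. No comparison with genes of similarly low counts was made. Such concentration in a single library was not peculiar to lean 1: 48 genes reached that share in lean 2, and 4 to 5 genes in each of the other 4 libraries. The most abundant of the 18 other genes had 46 to 95 counts in each of the other 5 libraries and 1671 in lean 1.

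**Figure D5:**
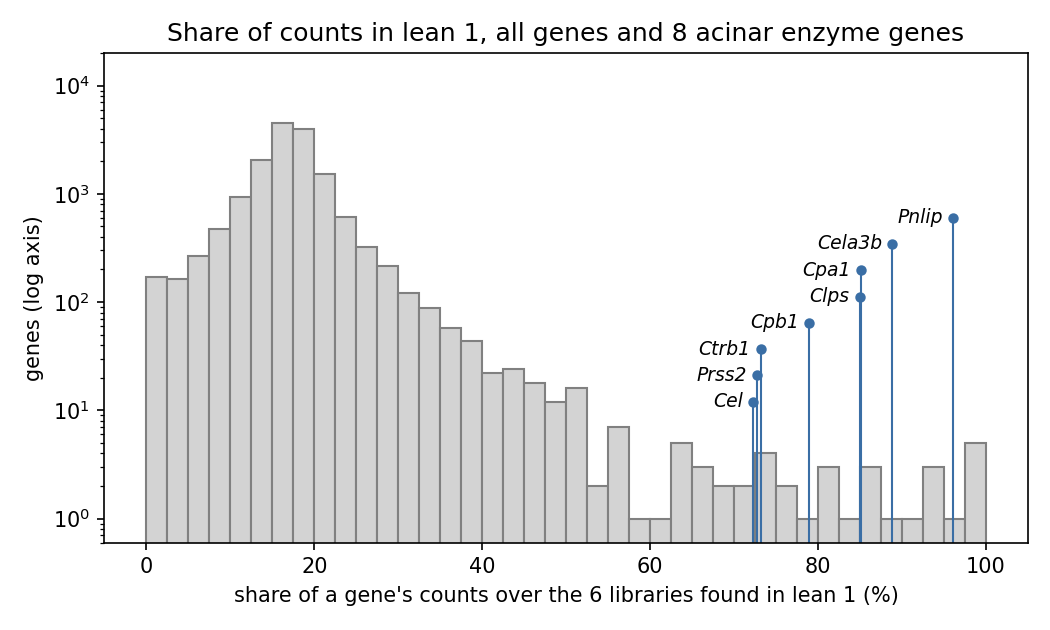
Share of each gene's counts over the 6 libraries that was in lean 1 (x axis, percent) for all 15646 genes (grey bars, number of genes on a log axis) and for the 8 acinar enzyme genes (blue lines, whose heights only separate the names). The 8 genes lie between 72.3% and 96.1%, where few other genes are found.

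The genes whose pattern was most like that of the 8 enzymes were found by Pearson's r between their log2 CPM and the mean standardized log2 CPM of the 8 genes over the 6 libraries. The closest was ENSMUSG00000036264.9 (r = 0.998), with 0, 1 and 0 counts in obese 1, 3 and 4, against 12, 0 and 2 counts in lean 1, 2 and 3. Next was ENSMUSG00000043635.12 (r = 0.993), with 9, 13 and 9 counts in obese 1, 3 and 4, against 33, 8 and 14 counts in lean 1, 2 and 3. These r values are a description over 6 libraries and rest largely on lean 1. The sources used here pair neither ID with a symbol, and the same holds for the other genes of the acinar program, such as amylases and acinar transcription factors, and for markers of islet, duct, fat and immune cells. The part of other cell types in these differences was not tested.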

How the data were processed

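Total RNA of 6 tumors was sequenced after ribosomal RNA depletion, per the labels' protocols. The authors deposited gene counts, not normalized, in 1 table. The tools CASAVA, STAR and Subread and the build GRCm38 are named, per the submitters' processing notes, with versions and settings, strand included, not given in the sources used here. In the table, the lowest gene sum is 11, so scarcer genes had been left out by a rule that no source states. Each of the 6 columns carried a sample's title. Titles starting OB were taken as obese and, the design naming 2 kinds of mice, those starting ND as lean. No label says that libraries came from separate mice, so p-values reflect only how these samples vary, which may be technical. The counts of libraries of the same group differed by 7.50 to 14.8 times the sampling variance, so no pair looked like 1 library deposited again.

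R 4.3.3 with edgeR 4.0.16 was used: expression filter (minimum count 10, minimum total 15; 14348 genes kept), TMM factors, quasi-likelihood F test, two-sided, with p adjusted by Benjamini-Hochberg over the genes tested and called under 0.05. With the filter 2991 genes (20.8%) were called. SE is the size of the log2 fold change over the square root of F. Log2 CPM used a prior count of 2. Alternatives were other scalings and filters, a replicate block, a robust fit, DESeq2 1.42.0 and voom from limma 3.58.1. Removal of the 10 most abundant genes and leaving out each library were further ones. All fits without the filter other than the first were added after seeing the data. The plan set counts and CPM alone for a member that the filter removes. The permutation tests, pooled ratios with intervals, tests of shares and comparison of shares in lean 1 were not in the plan. Symbols of the 8 genes came with their list of IDs, and positions from RefSeq (GRCm38.p6), matched by symbol. None of the 49997 RefSeq rows carries an Ensembl ID (0 matched), so planned lists of other genes, named by symbol, were not looked up. Sequences and promoter motifs were not analysed here. Named were all members, and the closest 2 of the 5 genes most like them in pattern. The members and lists were chosen with earlier results of these data known.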

Additional observations from a re-analysis of the deposited data

How the results depend on the processing

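With the filter, 0 acinar enzyme genes were called higher under every alternative. Most alternatives, such as DESeq2, limma-voom and leaving out lean 1 or lean 3, left none of these genes to test, so their 0 was fixed in advance. The count called lower was 0 with the 6 libraries under the main filter, which left none to test, and 1 without a filter. It was also 0 with the filter on CPM, under which Ctrb1 alone was tested and did not pass (log2 fold change -3.48, edgeR adjusted p = 0.0701); leaving out 1 library, which changes the filter, gave 0 to 2, Ctrb1 and Cel being the 2 called without obese 3 or lean 2. Without the filter, the count called lower was 1, against 2 with RLE factors and 0 with limma-voom. It was 3 with the replicate block (Cel, Ctrb1 and Prss2) and 0 to 3 when 1 library was left out. In each of these fits, 0 were called higher. The share of all genes called lower is given here for the main fits (10.6% with the filter and 9.45% without it). It is not given for the alternatives, so their counts of enzyme genes have no background to be read against. Clps was at -2.38 on the log2 scale with all libraries and turned to 3.12 without lean 1 (edgeR adjusted p = 0.498), since its lean counts were all in lean 1. With the filter, the number of changed genes among all genes was 2991, and 1179 to 3066 when 1 library was left out. It was 2087 with the filter and the replicate block, a fit in which no enzyme gene was tested. The difference in summed level was -18.8 to -2.54 CPM when 1 library was left out, -11.1 CPM without Prss2 and -12.2 CPM with total counts only. Both groups have libraries numbered 1 and 3, and after subtraction of the group means these correlated at 0.090 and 0.074. No label says that a shared number pairs them. Obese 4 and lean 2 share no number with the other group, so they do not inform the difference in the fit with the replicate block. Depth limits all of this: 0 counts allow up to 0.351 to 0.425 CPM in a library.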
